A study of Mus musculus with 6 samples.

Results

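The 10 genes described here are the Tie receptors Tek and Tie1, the angiopoietins Angpt1 and Angpt2, the phosphatase gene Ptprb, the VEGF receptor genes Kdr and Flt1, and the endothelial genes Esm1, Nos3 and Pecam1. They were taken by gene name from a table of 17550 genes, which holds all 10. The table comes from bulk RNA sequencing of poly(A)-selected libraries of saline-perfused mouse kidneys, with 3 Control and 3 KC-Tie2 samples. KC-Tie2 is a psoriasis model in which a transgene drives the receptor Tie2, the product of Tek, in keratinocytes. In the published model expression of the transgene in keratinocytes depends on the Krt5 promoter, a detail that the labels used here do not give. Nor do the labels give the sex, strain or age of the mice or the alleles carried by the Control mice. The question was whether the kidney, to which the transgene is not directed, differs between the genotypes in its own Tie2 and endothelial genes. No label ties a sample to its own animal, so the spread behind every p-value is that between samples and may be technical.

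Tie2 is a receptor tyrosine kinase of endothelial cells. Angpt1, made by supporting cells such as podocytes and pericytes, activates it and keeps vessels quiescent, whereas Angpt2, released by endothelial cells themselves, can block or activate it depending on context. Tie1 is a partner receptor that binds no angiopoietin strongly, and the phosphatase encoded by Ptprb, VE-PTP, removes phosphate from Tie2 and from junction proteins. VEGF, made in the kidney mainly by podocytes and tubules, acts on the same endothelium through Kdr, while Flt1 binds VEGF tightly and signals weakly. Kidney endothelium includes the fenestrated capillaries of the glomerulus, the capillaries around the tubules and the straight vessels of the medulla, and a whole-kidney library mixes them all.

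Of the 10 genes, 1 differed between the genotypes. Esm1, which encodes endocan, a proteoglycan secreted by activated and sprouting endothelium, fell by 38.0% in KC-Tie2 kidneys. Tek itself did not pass the test, and its mean was not higher in the mice that carry the transgene, with 1048 ± 50.9 in Control and 948 ± 24.8 in KC-Tie2 libraries (SD, n = 3 each). The remaining 8 genes did not pass the test, and the interval of their differences was narrowest for Ptprb, Kdr and Flt1. A call here is an adjusted p under 0.05 in limma, a linear model fitted to log2(value + 1) of all 17539 genes with a mean of at least 10, with Benjamini-Hochberg adjustment. By that rule 1.69% of all tested genes were called, 0.855% as higher and 0.838% as lower, so 1 call among 10 genes rests on Esm1 alone. Values are the deposited normalized counts, log2 fold changes are KC-Tie2 minus Control with their standard error, and percent intervals are the limma 95% confidence intervals of the fold change.

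The stretch upstream of the start is shown for Esm1, the gene that fell, and for Tek, the gene of the transgene. Sequences are RefSeq promoters on GRCm38.p6, 5′ to 3′ on the strand of the gene, 250 bases ending at the base before the start, and 5 of the 10 genes were matched in that table. Capitals mark GGAA or its reverse complement TTCC, the core bound by ETS factors, a family that includes the endothelial regulators Erg and Fli1.
Esm1, chr13:113209409-113209658, plus strand: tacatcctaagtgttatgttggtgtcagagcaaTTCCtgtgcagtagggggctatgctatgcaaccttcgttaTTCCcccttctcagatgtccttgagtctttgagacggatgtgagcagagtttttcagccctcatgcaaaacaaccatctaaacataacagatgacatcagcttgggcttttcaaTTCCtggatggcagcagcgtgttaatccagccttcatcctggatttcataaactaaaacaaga
Tek, chr4:94739039-94739288, plus strand: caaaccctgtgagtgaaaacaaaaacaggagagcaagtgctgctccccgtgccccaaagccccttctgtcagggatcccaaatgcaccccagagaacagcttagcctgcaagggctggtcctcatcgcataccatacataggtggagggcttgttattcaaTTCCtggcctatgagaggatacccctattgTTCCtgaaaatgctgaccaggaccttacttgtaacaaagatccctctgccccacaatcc
The core occurred 3 times in the Esm1 stretch and 2 times in the Tek stretch, and it is present in 93.4% of 32851 promoter stretches of the same length. Neither stretch held TGTTTAC, the forkhead motif bound by Foxo1 (3.17% of stretches), the STAT motif TTCNNNGAA (7.02%) or the AP-1 motif TGANTCA (6.75%), each searched on both strands. The Esm1 stretch had 44% G or C and the Tek stretch 51.2%. These are descriptions of letters in 1 window, not of factor binding.

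Facts of the whole series are brief. Normalized counts summed to between 23647811 and 25495455 per library. The spacing of the low values put the depth before normalization between about 18800000 and 29500000 estimated counts. Counting error alone then gives the members a coefficient of variation between 1.60% (Ptprb) and 7.53% (Nos3) per library of average depth. Tubule markers such as Slc34a1, the proximal phosphate transporter, at 108963 ± 4941 in Control and 93558 ± 5099 in KC-Tie2 (limma adjusted p = 0.224), and Slc12a1, the loop of Henle salt transporter (27911 ± 2830 and 35435 ± 5301, limma adjusted p = 0.171, step-up FDR 0.0451 in the authors' deposited table), were abundant in every library, as the tissue label states. The endothelial markers Cdh5, encoding VE-cadherin, and Emcn, encoding endomucin, lay between 1007 and 1178 and between 782 and 1142. In whole tissue, fewer endothelial cells and less RNA per endothelial cell cannot be told apart.

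Levels per kilobase of exon allow the genes to be ordered, given the exon lengths used. Exon lengths are the union of exons in GENCODE release M21, which is of another build than the mm39 named for these files. They serve as lengths only. A union counts every annotated exon, whether or not it was expressed here, from 2097 bases for Esm1 to 13504 for Flt1. The order between genes, close neighbours above all, depends on that choice. Over the 6 libraries the median normalized count per kilobase was 283 for Ptprb, 251 for Pecam1, 245 for Kdr, 209 for Tek, 189 for Tie1, 176 for Flt1, 157 for Esm1, 115 for Angpt2, 67.0 for Angpt1 and 42.6 for Nos3. Ptprb was above Pecam1 in all 6 libraries without overlap of their ranges, and so were Angpt2 above Angpt1 and Angpt1 above Nos3. Kdr was above Tek and Tek above Tie1 within each of the 6 libraries, although the ranges over libraries overlapped. Pecam1 and Kdr were in that order in 4 libraries, so these neighbours were not separated beyond their spread. The order of Flt1 and Esm1 split by genotype, with Esm1 above Flt1 in every Control library and below it in every KC-Tie2 library. Esm1 was above Angpt2 in every Control library but, of the KC-Tie2 libraries, only in replicate 3. Esm1 was in the middle of the order and moved within it: its mean per kilobase was 192 in Control and 119 in KC-Tie2 kidneys.

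**Figure D1:**
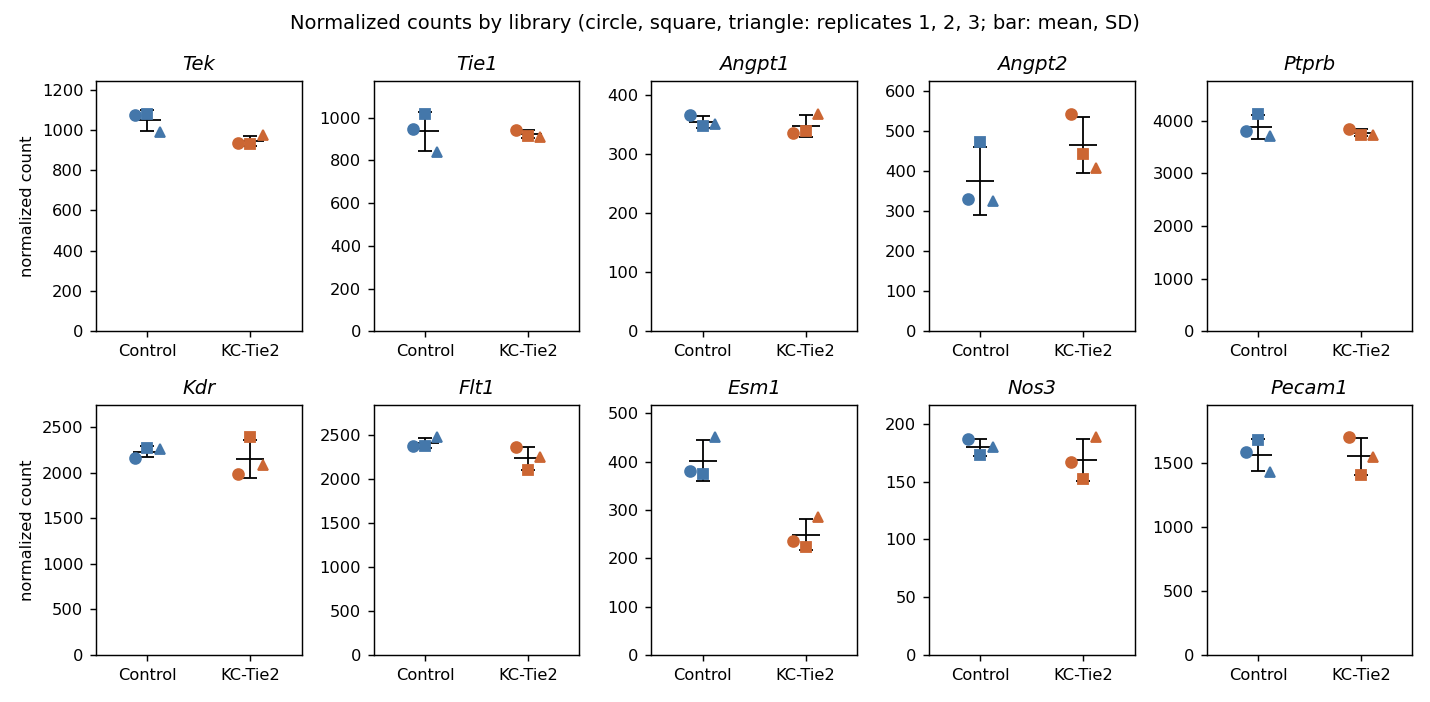
Normalized count (y axis, from 0) of each of the 10 genes in the 3 Control (blue) and 3 KC-Tie2 (orange) libraries; symbols mark replicates 1 to 3, and the black bar gives mean and SD. Esm1 lies between 374 and 451 in Control and between 224 and 286 in KC-Tie2, whereas Tie1, Angpt1, Ptprb and Pecam1 overlap.

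Tek (ENSMUSG00000006386, chromosome 4, 94627526 to 94763213, plus strand, mm39) had 1073, 1081 and 989 normalized counts in Control replicates 1 to 3 and 934, 933 and 976 in KC-Tie2 replicates 1 to 3. All 3 KC-Tie2 values were below the lowest Control value, though by only a narrow margin for replicate 3. Groups that do not overlap occurred at 20% of all genes tested, and at 3 of these 10 genes, Tek, Flt1 and Esm1. The log2 fold change of Tek was -0.14 ± 0.07 (limma adjusted p = 0.361), with an interval from 18.6% lower to 0.662% higher. In the authors' deposited table the ratio for Tek is 0.904 with a step-up FDR of 0.604. Whether transgene transcripts would be counted at Tek depends on the construct and the annotation, which the sources used here do not give.

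Tie1 (chromosome 4, 118328388 to 118347258) had 948, 1019 and 840.2 in Control and 945, 914 and 910.0 in KC-Tie2 libraries. The KC-Tie2 values lay inside the Control range, and the log2 fold change was -0.02 ± 0.08, turning to 0.02 when libraries were scaled to equal totals (limma adjusted p = 0.954 and 0.955). The log2 ratio of Tek to Tie1 within a library, which does not depend on library scaling, was 0.18, 0.09 and 0.24 in Control and -0.02, 0.03 and 0.10 in KC-Tie2 libraries. KC-Tie2 replicate 3 overlapped Control replicate 2, and the difference of -0.13 had an exact two-sided permutation p of 0.2 (adjusted p = 0.333 over 5 ratios). With 3 libraries against 3 the smallest p this test allows is 0.1, so none of the 5 ratios could pass. The log2 ratio of Tek to Pecam1 was -0.57 ± 0.05 and -0.70 ± 0.14, again with overlap (exact permutation p = 0.2).

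The 5 protein-coding genes most like Tek were Ube2h, Eef1g, Stxbp3, Fam114a2 and Cct5. Likeness was the smallest root mean square difference between log2 values centred on each gene's mean over the 6 libraries, among 11295 protein-coding genes with a mean of at least 100. The difference was 0.014 for Ube2h, a ubiquitin-conjugating enzyme gene, and 0.025 for Cct5, a chaperonin subunit gene. Their log2 fold changes ran from -0.18 (Stxbp3) to -0.12 (Eef1g), with limma adjusted p-values between 0.338 and 0.441. As likeness was measured over both genotypes, fold changes near that of Tek follow from the choice of these genes. None of the other 9 genes described here was among them.

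Angpt1 (chromosome 15, 42288119 to 42540373), the activating ligand, had 367, 347 and 350.2 in Control and 335, 339.5 and 369 in KC-Tie2 libraries. The ranges overlapped almost fully. A log2 fold change of -0.03 ± 0.10 was fitted, with an interval from 15.2% lower to 13.2% higher (limma adjusted p = 0.923), and it was 0.005 under scaling to equal totals.

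Angpt2 (chromosome 8, 18740279 to 18791578), the context-dependent ligand, was the only one of the 10 with a higher mean under every alternative tried, equal library totals and quantile normalization included, without passing the test in any. It had 329.9, 474 and 325 in Control and 544, 444 and 407 in KC-Tie2 libraries. Control replicate 2 exceeded KC-Tie2 replicates 2 and 3, so the groups overlapped. The log2 fold change was 0.32 ± 0.16 (limma adjusted p = 0.399), with a wide interval from 3.19% lower to 60.5% higher. The coefficient of variation between libraries was 22.5% in Control and 15.2% in KC-Tie2, against 4.80% from counting, and the authors' deposited table gives a ratio of 1.23 with a step-up FDR of 0.487. Without Control replicate 2 the log2 fold change was 0.50 (limma adjusted p = 0.0687), and without KC-Tie2 replicate 1 it was 0.20 (limma adjusted p = 0.740).

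The balance of the ligands is often read as the ratio of Angpt2 to Angpt1. As a linear ratio of values with 1 added it was 0.900, 1.36 and 0.927 in Control and 1.62, 1.31 and 1.11 in KC-Tie2 libraries. The highest ratio was in KC-Tie2 replicate 1, but Control replicate 2 was above KC-Tie2 replicates 2 and 3. The log2 difference of 0.35 had an exact two-sided permutation p of 0.3 (adjusted p = 0.375 over the 5 ratios).

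Ptprb (chromosome 10, 116111428 to 116225440), encoding VE-PTP, had 3801, 4136 and 3709.9 in Control and 3850.4, 3729 and 3736 in KC-Tie2 libraries. The KC-Tie2 libraries agreed within a coefficient of variation of 1.80%, close to the counting error, and fell inside the Control range. Its log2 fold change was -0.04 ± 0.07, and 0.005 under quantile normalization, with an interval from 12.3% lower to 7.80% higher (limma adjusted p = 0.845). With the exon lengths used, this was the most abundant of the 10 transcripts per kilobase.

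Other genes of Tie signalling were taken from a list of 21 receptor adaptors, kinases and transcription factors, of which 20 were tested. None was called by limma, 3 had an unadjusted p under 0.05, and 16 of 20 were above 0 (median log2 fold change 0.09, against 0.001 over all genes tested). Over all genes tested, 15.3% had an unadjusted p under 0.05 and 50.3% were above 0, the shares against which this and the following lists are to be read; 3 of 20 is close to that background. The members with the smallest p were Grb7, an adaptor that binds activated receptors (2300 ± 84.0 in Control and 1884 ± 70.1 in KC-Tie2, log2 fold change -0.29 ± 0.07, limma adjusted p = 0.0508), and Akt1, the kinase downstream of Tie2 (1477 ± 53.3 and 1748 ± 32.8, limma adjusted p = 0.0857). Grb7 passed the threshold in 5 of the alternatives, with limma adjusted p-values from 0.0278 to 0.0488, and the authors' deposited table gives it a step-up FDR of 0.0188. Foxo1, a transcription factor that Akt holds inactive, was at 2192 ± 99.0 and 2088 ± 271 (limma adjusted p = 0.756). Grb7, Akt1 and Foxo1 are expressed well beyond endothelium, so a whole-kidney level does not report Tie2 signalling.

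Kdr (chromosome 5, 76093487 to 76139118), the main signalling VEGF receptor, had 2164, 2270.35 and 2258 in Control and 1992, 2389 and 2081 in KC-Tie2 libraries. The KC-Tie2 libraries spread more widely, on both sides of the Control range. A log2 fold change of -0.05 ± 0.08 was fitted, with an interval from 14.3% lower to 8.15% higher (limma adjusted p = 0.805).

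Flt1 (chromosome 5, 147498414 to 147662821), the tight-binding VEGF receptor, had 2383, 2382 and 2477 in Control and 2364, 2102 and 2252 in KC-Tie2 libraries. The groups did not overlap, but KC-Tie2 replicate 1 was just below Control replicate 2. The log2 fold change was -0.11 ± 0.07, with an interval from 16.3% lower to 2.65% higher (limma adjusted p = 0.489). The log2 ratio of Kdr to Flt1 was -0.11 ± 0.04 in Control and -0.06 ± 0.22 in KC-Tie2 libraries (exact permutation p = 0.8).

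Among 14 VEGF ligands, co-receptors and VEGF-responsive endothelial genes, 13 were tested and 1 rose, where 0.855% of all genes tested were called higher. Vegfb, a ligand of Flt1, had a mean of 758 ± 32.3 in Control and 967 ± 61.6 in KC-Tie2 libraries (log2 fold change 0.35 ± 0.08, limma adjusted p = 0.0444), all 3 KC-Tie2 libraries lying above the Control range. That call was lost when any 1 library other than KC-Tie2 replicate 3 was left out (limma adjusted p-values from 0.0720 to 0.231) and without robust variance estimation (0.0610). In the authors' deposited table Vegfb has a step-up FDR of 0.0192. Vegfa, the main ligand of Kdr, was at 4824 ± 151 and 4511 ± 175 (limma adjusted p = 0.544). The median log2 fold change of the list was 0.02, and 7 of 13 were above 0 (50.3% over all genes tested). By limma, 4 of 13 had an unadjusted p under 0.05 (15.3% over all genes tested). The apelin gene Apln and its receptor gene Aplnr were named after their values were seen. Apln had 245, 147 and 159.7 in Control and 122, 147 and 112 in KC-Tie2 libraries (limma adjusted p = 0.246). Aplnr had 193, 186 and 172 in Control and 128, 136 and 115 in KC-Tie2 libraries (log2 fold change -0.54 ± 0.14, limma adjusted p = 0.0814). Neither passed the test, although in both the groups did not overlap, for Apln by a margin of less than 1 count. Of the 13 genes, 2 were higher and 4 lower in KC-Tie2 without overlap, against 20% of all genes tested in either direction.

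Esm1 (ENSMUSG00000042379, chromosome 13, 113346193 to 113354632, plus strand, mm39) had 380.3, 374 and 451 in Control and 236, 224 and 286 in KC-Tie2 libraries. The highest KC-Tie2 value was well below the lowest Control value. The mean went from 402 ± 42.5 to 249 ± 32.6 (SD, n = 3 each), and the log2 fold change was -0.69 ± 0.12 (limma adjusted p = 0.0210), with an interval from 48.7% to 25.3% lower. By its p, Esm1 ranked 106 among the 17539 genes tested. The authors' deposited table gives a ratio of 0.621 with a step-up FDR of 0.000552, in a table where 3.91% of genes have an FDR under 0.05. Without Control replicate 1 or 3, or KC-Tie2 replicate 1 or 2, the limma adjusted p was 0.0828, 0.109, 0.0942 and 0.114, with log2 fold changes between -0.73 and -0.61. Without Control replicate 2 or KC-Tie2 replicate 3 the call was kept (0.0222 and 0.00741).

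Esm1 was also lower relative to Kdr in the same library. That ratio uses the same Esm1 values, with Kdr at a log2 fold change of -0.05, so it is not separate support. The ratio of Esm1 to Kdr was 0.176, 0.165 and 0.200 in Control and 0.119, 0.0942 and 0.138 in KC-Tie2 libraries, with no overlap. The log2 difference was -0.64, with the smallest exact permutation p that 3 against 3 libraries allow, 0.1 (adjusted p = 0.333 over the 5 ratios). Summed normalized counts of 30 pan-endothelial markers were between 17529 and 18526 in Control and between 17895 and 19410 in KC-Tie2 libraries, with no marker at 0. These ranges overlapped: KC-Tie2 replicate 2, with the lowest Esm1 value, had a sum of 17895, and the highest sum was that of KC-Tie2 replicate 1. The part of the endothelial share in the Esm1 values was not tested.

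**Figure D2:**
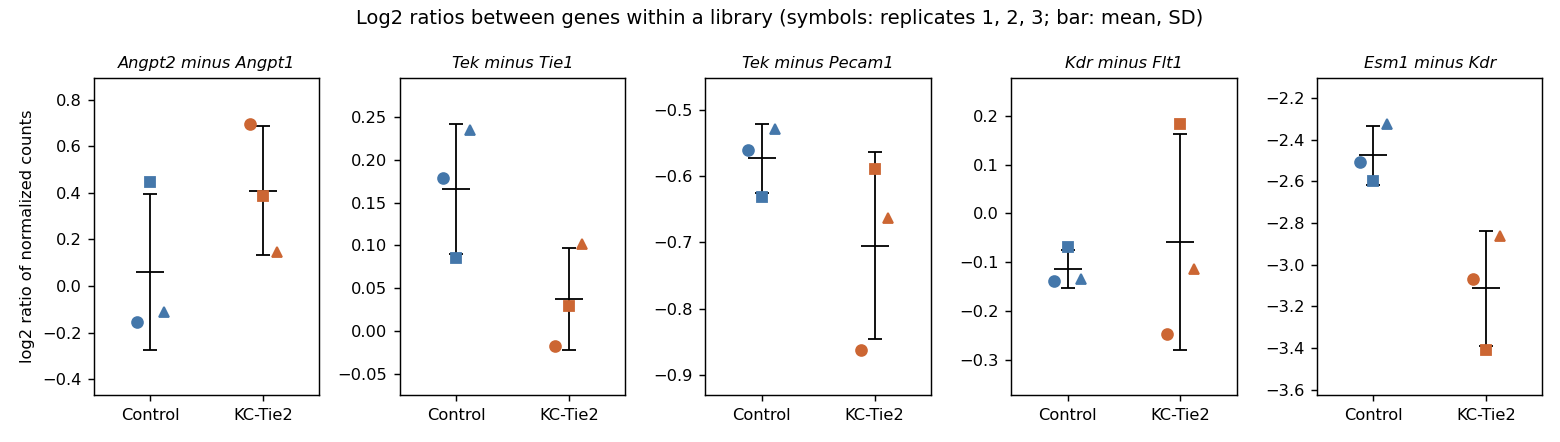
Log2 ratio of 2 genes within each library (y axis, not starting at 0) for the 5 gene pairs compared; symbols mark replicates 1 to 3 of Control (blue) and KC-Tie2 (orange), and bars give mean and SD. The groups separate for Esm1 against Kdr, with means of -2.48 and -3.11, and overlap in the other pairs.

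Nos3 (chromosome 5, 24569808 to 24589472), the endothelial nitric oxide synthase gene, had 187, 173 and 179 in Control and 167, 152 and 188 in KC-Tie2 libraries. The groups overlapped, and at this level counting error alone is 7.53% per library. The log2 fold change was -0.09 ± 0.13, with an interval from 23.5% lower to 15.0% higher (limma adjusted p = 0.814). A list of 16 nitric oxide and endothelin genes had no call by limma and 5 members with an unadjusted p under 0.05 (15.3% over all genes tested), 8 being above and 8 below 0. Its members with the smallest p were Ece1, which processes endothelin (2531 ± 134 and 2109 ± 147, limma adjusted p = 0.105), and Ddah2, which breaks down inhibitors of nitric oxide synthase (139.5 ± 11.9 and 193 ± 23.0, limma adjusted p = 0.148).

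Pecam1 (chromosome 11, 106545043 to 106641454), an adhesion molecule of endothelial junctions that platelets and leukocytes also carry, had 1582, 1675 and 1427 in Control and 1698, 1405 and 1546 in KC-Tie2 libraries. The ranges overlapped fully. The log2 fold change was -0.01 ± 0.09, and 0.02 under scaling to equal totals, with an interval from 12.9% lower to 12.9% higher (limma adjusted p = 0.968).

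**Figure D3:**
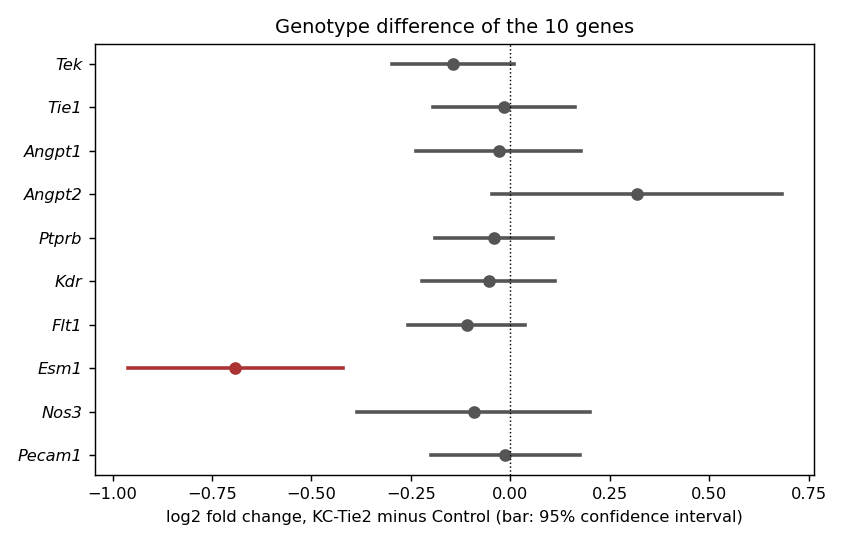
Log2 fold change of each of the 10 genes, KC-Tie2 minus Control (point), with its limma 95% confidence interval (bar) on the x axis; red marks an adjusted p under 0.05. Only the interval of Esm1, at -0.69, leaves out 0, and the interval of Angpt2 is the widest.

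As a group, 9 of the 10 genes had a log2 fold change below 0, but 6 did under scaling to equal totals and 8 under quantile normalization, and 6 did without Control replicate 2. Their median log2 fold change was -0.05, against 0.001 over all genes tested. Apart from Esm1 and Angpt2 the values ran from -0.14 (Tek) to -0.01 (Pecam1). Summed over the 10 genes, normalized counts were between 13007 and 13931 in Control and between 12632 and 13065 in KC-Tie2 libraries, with overlap.

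Other endothelial lists had few or no calls. Of 30 pan-endothelial markers, none was called by limma, 2 had an unadjusted p under 0.05 (15.3% over all genes tested), and the median log2 fold change was 0.08, with 19 above 0 (22 under equal totals and 15 without KC-Tie2 replicate 1, where the median was 0.006). The smallest p among them belonged to Cd34, a sialomucin of capillaries (543 ± 52.4 and 644 ± 45.9, limma adjusted p = 0.231), and Ushbp1 (471 ± 7.34 and 553 ± 54.3, limma adjusted p = 0.266). Cdh5 was at 1099 ± 71.2 and 1075 ± 80.1 (limma adjusted p = 0.897), with a log2 fold change of -0.03 that was 0.002 under equal totals. Emcn was at 937 ± 62.9 and 974 ± 181 (limma adjusted p = 0.922). The 8 endothelial junction partners had no call and no unadjusted p under 0.05 by limma, with log2 fold changes between -0.04 and 0.08. Among these were the junction genes F11r (1462 ± 47.6 and 1532 ± 37.0, limma adjusted p = 0.690) and Tjp1 (2310 ± 122 and 2397 ± 123, limma adjusted p = 0.790).

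By vessel type, the 5 glomerular markers, 9 tested arterial markers, 4 tested venous and capillary markers and 6 tested lymphatic markers had no call by limma, with 0, 3, 0 and 2 members at an unadjusted p under 0.05 (15.3% over all genes tested). Their median log2 fold changes were -0.005, 0.11, 0.00 and 0.08. Ehd3, a marker of glomerular capillaries, was at 1021 ± 85.9 and 1018 ± 97.7 (limma adjusted p = 0.987). Plat, the tissue plasminogen activator gene, had 859, 927 and 748 in Control and 1693, 984 and 1024 in KC-Tie2 libraries (limma adjusted p = 0.388), KC-Tie2 replicate 1 standing far above the other 5, and the authors' deposited table gives Plat a step-up FDR of 0.0413. Pi16 was at 127 ± 16.5 and 126 ± 43.7 (limma adjusted p = 0.940). Of arterial genes, the Notch ligand gene Jag1 (788 ± 44.7 and 908 ± 17.3, limma adjusted p = 0.199) and the connexin gene Gja5 (96.8 ± 10.1 and 148 ± 40.5, limma adjusted p = 0.203) had the smallest p. Igfbp3 (3542 ± 429 and 3102 ± 792, limma adjusted p = 0.713) and Plvap, encoding the diaphragm protein of fenestrae (3026 ± 397 and 3074 ± 238, limma adjusted p = 0.929), overlapped widely. Pdpn, taken from the lymphatic list, overlapped too (102 ± 12.7 and 142 ± 29.2, limma adjusted p = 0.283). The cells that Pdpn transcripts came from in whole kidney were not tested. Reln was at 242 ± 47.1 and 171 ± 11.4 (limma adjusted p = 0.148). Reln passed without Control replicate 2 (0.0427) and Gja5 without KC-Tie2 replicate 3 (0.0372).

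Of 11 genes of endothelial activation and haemostasis, 7 were tested and 1 rose, where 0.855% of all genes tested were called higher. It was the adhesion molecule gene Icam1, which leukocytes and tubule cells also express. It had 329, 368 and 292 in Control and 675, 539.8 and 449 in KC-Tie2 libraries (log2 fold change 0.74 ± 0.14, limma adjusted p = 0.0360). The call was lost under equal totals (0.0627) and without Control replicate 1 or 3 or KC-Tie2 replicate 1 or 2 (0.105 to 0.160). In the authors' deposited table Icam1 has a step-up FDR of 0.000311. Of the 7 tested genes, 3 were above and 4 below 0, with log2 fold changes from -0.76 to 0.83. The 4 genes not tested were Ccl2, Procr, Sele and Selp, so Icam1 alone does not give the direction of the list. Of 11 hypoxia response genes, 9 were tested and 1 fell, where 0.838% of all genes tested were called lower. It was Car9, a carbonic anhydrase gene induced by hypoxia (206 ± 30.1 in Control and 101 ± 15.8 in KC-Tie2, log2 fold change -1.03 ± 0.17, limma adjusted p = 0.0158). That call was lost without Control replicate 1 or 3 or KC-Tie2 replicate 2 (0.0710 to 0.0841). In the authors' deposited table Car9 has a step-up FDR of 5.78e-05. The medians of these lists were -0.02 and -0.05, with 3 of 7 and 2 of 9 genes at an unadjusted limma p under 0.05 (15.3% over all genes tested).

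**Figure D4:**
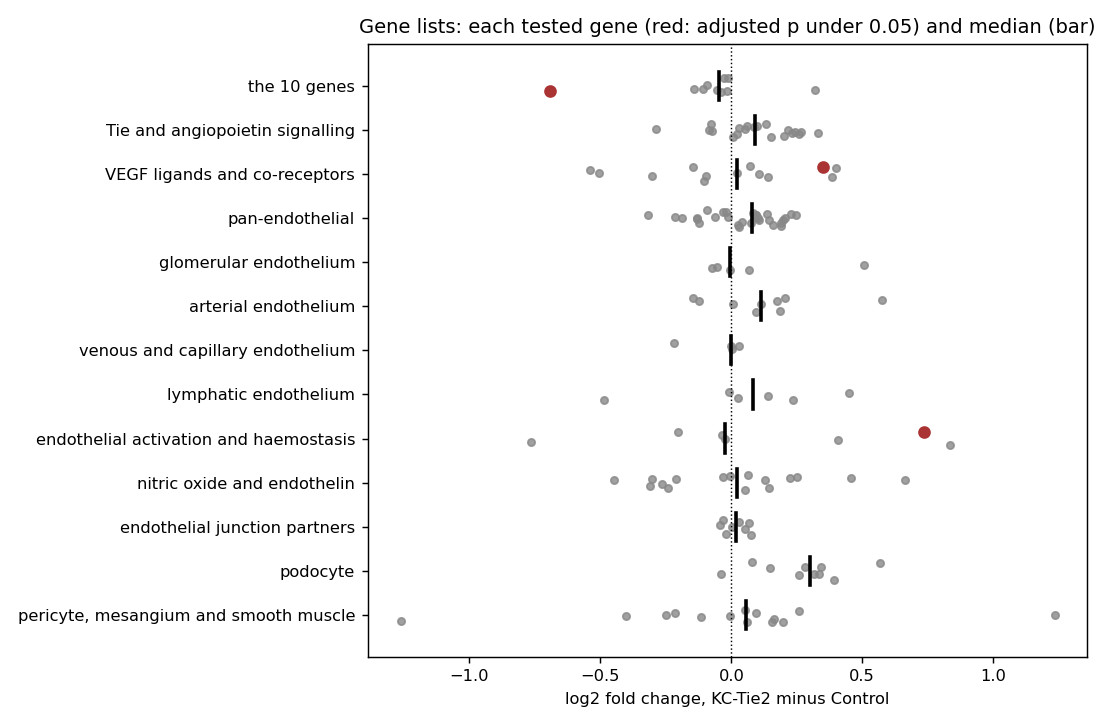
Log2 fold change, KC-Tie2 minus Control (x axis), of every tested gene of the 10 genes and of 12 signalling, endothelial, podocyte and pericyte lists (rows); grey points did not pass and red points passed an adjusted p under 0.05, and black bars are list medians. The red points are Esm1, Vegfb and Icam1, and the podocyte median is 0.30; hypoxia, blood cell, macrophage, keratinocyte and tubule lists are not drawn.

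Markers of other cells that supply or carry these transcripts were read in the same libraries. Podocyte markers, from a cell type that makes Angpt1 and Vegfa, had 9 of 10 above 0 and a median log2 fold change of 0.30, with no call by limma and 6 at an unadjusted p under 0.05, where all genes tested gave 50.3% and 15.3%. They summed to between 16241 and 17867 in Control and between 17712 and 21295 in KC-Tie2 libraries. The slit diaphragm gene Nphs1 was at 964 ± 38.6 and 1231 ± 181 (limma adjusted p = 0.128). Without KC-Tie2 replicate 3, 4 podocyte markers were called, Nphs1 (limma adjusted p = 0.00816) among them. The 14 pericyte, mesangial and smooth muscle markers had no call by limma and 4 at an unadjusted p under 0.05 (15.3% over all genes tested), with Abcc9 at 809.9 ± 22.9 and 699 ± 68.9 (limma adjusted p = 0.253) and the renin gene Ren1 at 763 ± 181 and 1913 ± 982 (limma adjusted p = 0.289). Of the 14, 8 were above and 6 below 0, with log2 fold changes from -1.26 to 1.24. Their sums were between 7696 and 8937 in Control and between 8921 and 10245 in KC-Tie2 libraries. These sums include Ren1, which had 684, 636 and 970 in Control and 1347, 3047 and 1345 in KC-Tie2 libraries. They therefore do not give a level of the other markers. The part of these cells in the values of the 10 genes was not tested.

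Keratinocyte markers, read because the transgene is directed to skin, did not separate the genotypes. Of 12, 7 were in the table and 6 were tested, with no call by limma and 1 at an unadjusted p under 0.05, close to the 15.3% of all genes tested. Their sums were between 296 and 707 in Control and between 296 and 476 in KC-Tie2 libraries. Krt5, on whose promoter expression of the published transgene depends, had 34.7, 114 and 8.12 in Control and 67.7, 12.5 and 40.8 in KC-Tie2 libraries. The spread within each genotype is larger than the difference of the means (limma adjusted p = 0.997). The table used here has no row for Krt14. Flg was at 118 ± 23.7 and 79.9 ± 25.1 (limma adjusted p = 0.273) and Krt10 at 85.8 ± 11.1 and 67.6 ± 10.8 (limma adjusted p = 0.452).

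Blood cells also carry Pecam1. The 1 platelet marker in the table, Itga2b, was at 110 ± 8.90 and 114 ± 15.0 (limma adjusted p = 0.923). The 4 haemoglobin genes had no call by limma and none at an unadjusted p under 0.05 (median log2 fold change 0.56), with Hbb-bt at 99.1 ± 30.9 and 227 ± 143 (limma adjusted p = 0.491) and Hba-a2 at 521 ± 121 and 903 ± 552 (limma adjusted p = 0.803). Of 7 macrophage and monocyte markers, none was called by limma, 3 had an unadjusted p under 0.05 and 6 were above 0 (15.3% and 50.3% over all genes tested; median log2 fold change 0.33), with Cd14 at 76.9 ± 10.8 and 126 ± 28.0 (limma adjusted p = 0.130) and Lyz2 at 250.1 ± 58.4 and 395 ± 84.8 (limma adjusted p = 0.185). Cd14 and Lyz2 passed without KC-Tie2 replicate 3 (limma adjusted p = 0.0362 and 0.0376), and the authors' deposited table gives Lyz2 a step-up FDR of 0.0266. The macrophage sum was between 1579 and 2110 in Control and between 1992 and 2388 in KC-Tie2 libraries, and its part in the Pecam1 and Flt1 values was not tested.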

How the data were processed

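The deposited expression table holds normalized counts, a signal that the authors scaled by library; the submitters' processing notes list mm39 as the build and Partek (version 12.5.0), DESeq2 and STAR as tools, without the role of each. Of the values under 60, 68.5% to 70.8% came within 0.01 of multiples of 1 step per library, so whole reads were not recovered and no count model was used. Not given in the sources used here are the annotation release, strand use and the rule that removed low genes. The other deposited table gives, per the file headers, the authors' p-value, step-up FDR, ratio and signed fold change against a group headed WT; it was copied, not retested.

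Each column carries the library name found in 1 sample's description, and 0 value columns were left unused. Values were fitted as log2(value + 1) for genes with a mean of at least 10, in R 4.3.3 with limma 3.58.1 (functions lmFit and eBayes, the latter with its trend and robust options; 4 residual and, at the median, 7.79 prior degrees of freedom), two-sided, with Benjamini-Hochberg adjustment over all genes tested. The script was tested on simulated data. Only called genes are said to have risen or fallen. Gene ends are 1 base before the listed stop.

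The genes and the 18 other lists were chosen with earlier results of these data known. Named were the 10 genes, called members of each list or its 2 members with the smallest p, Cdh5, Emcn, Vegfa, Foxo1, Ehd3, Krt5 and Krt14, and the 5 genes most like Tek; Apln and Aplnr fall outside that rule, and 1 gene it names is not reported here. Lists are described by counts and medians, without a set test. Ratios between genes were compared by exact permutation of the 6 libraries (scipy 1.17.1). Python 3.11.15, pandas 2.3.3, numpy 2.4.6 and matplotlib 3.10.9 were used for tables and figures. As alternatives, 15 in all, the fit was repeated without the filter on low values, with a minimum mean of 100, with pseudocounts of 0.5 and 5, equal library totals, quantile normalization, library weights, the replicate number as a block, non-robust eBayes, and each library left out.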

Additional observations from a re-analysis of the deposited data

How the results depend on the processing

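Esm1 stayed lower under all 15 alternatives (log2 fold change -0.79 to -0.61) and was called in 11; the 4 exceptions each left out 1 library. The count of called genes among the 10 was 0 in those 4 fits and 1 in the other 11. Over all genes the count of calls was 297, 48 to 682 with 1 library left out, 581 with the replicate block and 549 with library weights. Replicate numbers are shared by the genotypes. Deviations from the group means correlated at 0.178, -0.096 and 0.017 for equal numbers 1 to 3, and between -0.283 and 0.26 for unequal numbers. With so few libraries per group these correlations cannot decide whether the numbers pair the samples. With the replicate block Esm1 had a limma adjusted p of 0.00477 and no other of the 10 genes was called. Values near 0 changed sign. With equal library totals Tie1 was at 0.019, Angpt1 at 0.0047, Pecam1 at 0.022, Cdh5 at 0.0023 and Ehd3 at 0.029. Quantile normalization put Ptprb at 0.0052 and Krt5 at -0.087, library weights Krt5 at -0.15 and Emcn at -0.00011, and a pseudocount of 5 Krt5 at -0.029. With 1 library left out, log2 fold changes ran from -0.091 to 0.048 for Tie1, -0.072 to 0.0064 for Ptprb, -0.080 to 0.056 for Pecam1, -0.090 to 0.019 for Cdh5, -0.083 to 0.037 for Ehd3, -0.084 to 0.19 for Emcn, -0.032 to 0.13 for Plvap, -0.32 to 0.11 for Pi16, -0.045 to 0.14 for Itga2b and -0.92 to 0.91 for Krt5. The log2 ratio of Kdr to Flt1 ran from -0.066 to 0.15. The other 4 ratios kept their direction in the 9 alternatives run for each. The cause of these changes was not tested. Among the 10 genes the estimated counting error was highest for Nos3, at 7.53%. Its coefficient of variation between libraries was 3.96% in Control and 10.7% in KC-Tie2. The standard error of the log2 fold change was larger for Angpt2 (0.16) than for Nos3 (0.13).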

Other observations

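KC-Tie2 replicate 1 had the highest Angpt2 (544), Plat (1693), Emcn (1142) and summed pan-endothelial (19410) values of the 6 libraries, and also the highest haemoglobin sum (4956, against 919 and 3926 in KC-Tie2 replicates 2 and 3 and between 1422 and 2155 in Control libraries). Its Esm1 value of 236 lay between those of the other KC-Tie2 libraries. Its depth before normalization, about 21300000 estimated counts, was the lowest of the KC-Tie2 libraries. KC-Tie2 replicate 2 had the lowest Nos3 (152), Flt1 (2102), Pecam1 (1405) and Esm1 (224) values and the highest Kdr value (2389) of the 6 libraries. These are values of single libraries, chosen after they were seen.

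Of the other VEGF ligands, also named after their values were seen, Vegfd had 112, 122 and 111 in Control and 185, 141 and 131 in KC-Tie2 libraries (limma adjusted p = 0.295), the groups not overlapping. Vegfc, at low counts, had 50.4, 57.0 and 69.0 in Control and 46.6, 45.0 and 49.9 in KC-Tie2 libraries (limma adjusted p = 0.569). Its groups did not overlap either, narrowly and in the other direction, and 20% of all genes tested had groups without overlap. The co-receptor gene Nrp1 was at 2178 ± 148 and 2344 ± 133 (limma adjusted p = 0.547).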
